A study of Mus musculus with 6 samples.

Results

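The genes described here encode splicing factors and heterogeneous nuclear ribonucleoproteins (hnRNPs). They were chosen by gene symbol: all Hnrnp, Srsf, Sf3a, Sf3b, Snrp, Snrnp, Prpf, numbered Lsm, U2af and numbered Rbm genes except Rbm15 and Rbm15b, together with Sfpq, Nono, Srrm1, Srrm2, Tra2a and Tra2b. Of 131 protein-coding genes of these names, 38 had at least 1 entry in a list of ac4C pull-down summits, and the other 93 had none in the data analysed here. The 38 genes carried 47 of the 1876 listed summits, or 2.51%, and made up 2.56% of the 1485 listed genes, against 0.598% of all protein-coding genes that the 131 names represent.

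The study pulled down RNA fragments with an antibody against N4-acetylcytidine (ac4C) from 32D cells, a mouse bone marrow line that the labels call lymphoblastocytes. All cells were wild type and grew with mouse interleukin 3 at 10 ng/mL, and poly(A) RNA was the starting material. There were 2 libraries with the ac4C antibody, 2 with control IgG and 2 of input RNA, and separate cultures are not stated in the labels. The authors made 1 summit call after merging both ac4C libraries. No value below therefore belongs to a single library, no replicate error can be given, and no test between groups was possible. Of 14 hematopoietic and myeloid markers, 5 were in the list (Spi1, Csf2rb, Prtn3, Fcer1g and Cd47), while Ptprc, Il3ra, Mpo, Elane, Ctsg, Kit, Cd34, Cebpa and Itgam were not. None of the 4 B cell, 4 T cell or 4 non-hematopoietic markers was listed, and Hba-a1 and Pf4 were the listed genes of the 3 erythroid and 3 megakaryocyte markers.

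Splicing is carried out by the spliceosome, which is built from small nuclear ribonucleoproteins (snRNPs). Each snRNP holds a small RNA inside a ring of Sm or LSm proteins and further proteins of its own. SR proteins, which carry stretches rich in arginine and serine, mostly help the spliceosome to select exons, and hnRNPs bind nascent and mature transcripts and often oppose that selection. Many SR and hnRNP genes control their own output through alternative splicing of their own transcripts. ac4C is an acetylated cytidine placed by Nat10, well known from ribosomal and transfer RNA and also reported in mRNA.

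The value given for each summit is the fold enrichment of the authors' peak caller. The fold was examined to learn what it counts: every fold in the list divided by 0.474666 gave a whole number to within 0.01. MACS2 forms a fold as the fragments over the summit plus 1, divided by the background plus 1. Read in this way, the list has 1 background of 1.11 fragments, and each fold corresponds to a whole number of pulled-down fragments. The intervals below are exact Poisson 95% intervals of that number, converted to the fold scale. They cover counting error only and take no account of the choice of the highest point of a peak. Ratios of the tallest gene of a subfamily to the next compare genes picked by these same folds. The intervals of these ratios take no account of that choice. The fold holds no input or IgG term, so a tall summit may reflect strong pull-down or an abundant transcript; these cannot be told apart here, and a gene without an entry is not shown to be unacetylated or unexpressed.

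Splicing and hnRNP genes were listed more often than protein-coding genes at large, and the subfamilies differed in how many of their members appeared. Of the 131 genes, 29.0% had a summit, and the same share over all 21900 protein-coding genes was 6.71%. With a fold at or above 11.4, the median of all listed summits, were 24 members, or 18.3% of the 131, against 3.65% of all protein-coding genes. The hnRNP genes had 11 of 21 listed, or 52.4% (exact Clopper-Pearson 95% interval 29.8% to 74.3%), the SR genes 6 of 15, or 40.0% (16.3% to 67.7%), and the snRNP core genes, meaning the Snrp, Snrnp and Lsm names, 7 of 32, or 21.9% (9.28% to 40.0%). The 3 intervals overlap, and the genes of a family share sequence and are not independent, so the order of the 3 subfamilies is a description. PRPF genes had 5 of 13 listed, or 38.5% (13.9% to 68.4%), the Sf3 and U2af genes 3 of 12 (5.49% to 57.2%), and RBM genes 5 of 36, or 13.9% (4.67% to 29.5%). Of the pair Sfpq and Nono, 1 was listed. The intervals treat genes as independent draws and cannot decide whether a subfamily's share differs from the 6.71% of all protein-coding genes. No subfamily was tested against that share, because its genes are not independent and the members were chosen with earlier results known. Expression in these cells was not measured, and the part that unexpressed genes play in these shares was not tested.

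**Figure D1:**
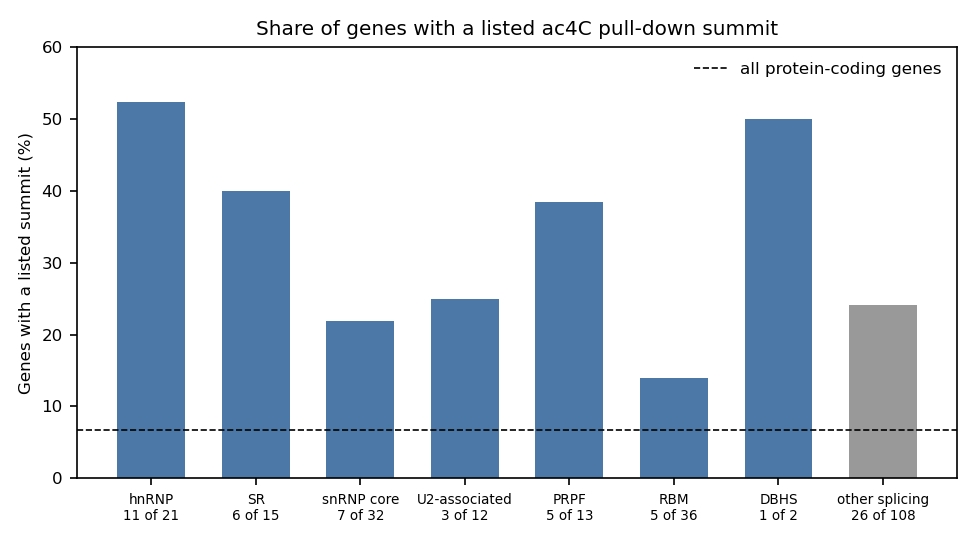
Share of genes with at least 1 listed summit in each subfamily (bars, percent of the protein-coding genes of that name; counts under the bars), with the other splicing genes in grey and all protein-coding genes as a dashed line at 6.71%. Bars run from 13.9% for RBM genes to 52.4% for hnRNP genes, and all lie above the line; single lists give no error bar from replicates.

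Among the hnRNPs, the A/B relatives held the tallest summit. Hnrnpa1, which encodes an abundant hnRNP that represses exon inclusion and shuttles between nucleus and cytoplasm, had 1 summit at nt 53 of ENSMUST00000036004, in the 5' untranslated region, with a fold of 90.7 (78.3 to 104) from 190 fragments. It ranked 13 among the 1485 listed genes. Hnrnpab followed with 30.9 (23.9 to 39.3) at nt 1744 in the 3' untranslated region, Hnrnpa3 had 20.9 (15.2 to 28.0) at nt 272 of coding sequence, and Hnrnpa2b1 had 8.54 (5.17 to 13.4) at nt 376 of coding sequence. The summit of Hnrnpa1 held 2.97 times the fragments of that of Hnrnpab, with a counting interval of 2.2 to 4.0. Of 7 related genes with this A/B or D type of layout, a grouping added after the values were seen, 4 were listed. Over all hnRNP genes, 11 of 21 were listed, or 52.4%. Hnrnpa0, Hnrnpd and Hnrnpdl were the unlisted genes of the 7.

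Hnrnpk encodes a KH-domain protein that binds runs of cytidines in RNA and DNA, and it had 4 listed summits on 4 transcripts, the most of any member. The tallest lay in the 5' untranslated region at nt 269, with a fold of 16.1 (11.3 to 22.5). The coding summits had folds of 9.02 at nt 150 and 7.12 at nt 410, and the 3' untranslated summit at nt 2476 had 3.80 (1.81 to 7.32), which rests on 7 fragments. The intervals of the 5' and 3' untranslated summits do not overlap, whereas those of the coding summits overlap both. Because the 4 summits lie on different isoforms, the 3 near the start may not be separate sites. Only 17 of the 1485 listed genes had 4 or more summits.

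The remaining hnRNP genes had folds between 3.80 and 21.8 at their tallest summit. Hnrnpul1 and Hnrnpul2, relatives of the scaffold gene Hnrnpu, were both listed, with 3' untranslated folds of 21.8 (16.1 to 29.1) and 10.4 (6.65 to 15.7), and Hnrnpu itself was not. Hnrnpf, whose protein binds runs of guanosines, had 15.7 (10.9 to 21.9) at nt 108 of a 5' untranslated region, while its relatives Hnrnph1, Hnrnph2 and Hnrnph3 had no entry. Hnrnpm, which encodes a splicing regulator with several RNA recognition motifs, had 2 summits on different transcripts, both coding in the authors' annotation. Their folds were 14.2 (9.69 to 20.2) at nt 3481 and 4.75 (2.43 to 8.58) at nt 1384. Whether nt 3481 lies in coding sequence was not checked. Hnrnpc, the gene of the protein that packages nascent transcripts and binds runs of uridines, had 9.49 (5.90 to 14.6) in the 3' untranslated region. Hnrnpr had the lowest, 3.80 (1.81 to 7.32) in coding sequence, and ranked 1428 of 1485. Of the 11 listed hnRNP genes, 7 reached the median of 11.4. Hnrnpl, Hnrnpll and Hnrnpa1l2-ps2 completed the unlisted hnRNP names.

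SR genes were represented by Srsf3, Srsf4, Srsf5, Srsf6, Srrm1 and Srrm2. Srsf3, the gene of the smallest of the classical SR proteins, stood above the others with a coding summit of 33.2 (26.0 to 41.9) at nt 531, from 69 fragments. Srsf5 followed with 16.6 (11.7 to 23.0) in coding sequence and Srsf6 with 16.1 (11.3 to 22.5) in the 3' untranslated region, and Srsf3 held 2.03 times the fragments of Srsf5 (counting interval 1.33 to 3.16). Srsf4 had a low coding summit of 6.17 (3.42 to 10.4). Srrm1 and Srrm2 encode large nuclear matrix proteins rich in serine and arginine, and both had low folds: a coding summit of 7.59 for Srrm2, and for Srrm1 a coding summit of 6.17 and a 3' untranslated one of 4.27. The upper ends of the intervals of Srsf4, Srrm1 and Srrm2 lay at 12.2 or below, under the 26.0 at which that of Srsf3 begins. Srsf1, Srsf2, Srsf7, Srsf9, Srsf10, Srsf11 and Srsf12 had no entry, nor did Tra2a and Tra2b, whose proteins bind purine-rich exonic enhancers.

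In the snRNP core, some subunit genes of each ring were listed. The share listed was 21.9% over all 32 snRNP core genes and 29.0% over all 131 members. The Sm ring, which surrounds most spliceosomal small RNAs, had 2 of 7 subunit genes listed. Snrpd2 had a fold of 73.1 (62.1 to 85.6) at nt 253 of coding sequence, from 153 fragments, and ranked 22 among all listed genes. Snrpe had 16.1 (11.3 to 22.5) at nt 307 in the 3' untranslated region, and Snrpb, Snrpd1, Snrpd3, Snrpf and Snrpg had no entry. The LSm ring of U6 small RNA had 3 of its 7 subunit genes listed: Lsm4 at 31.3 (24.3 to 39.8), Lsm3 at 13.3 (8.92 to 19.1) and Lsm2 at 5.70 (3.08 to 9.82), while Lsm5, Lsm6, Lsm7 and Lsm8 had no entry. Lsm12, which lies outside that ring, had a coding summit of 9.49 (5.90 to 14.6). Snrnp35, a protein gene of the minor spliceosome, had the lowest fold of the group with 5.22 (2.75 to 9.20) in the 3' untranslated region. None of the 3 U1-specific genes Snrnp70, Snrpa and Snrpc was listed, and neither was Snrnp200, the gene of the helicase that unwinds the paired U4 and U6 RNAs. The groupings by complex were added after the values were seen.

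Lsm4 and Lsm3 each had a pair of summits. Those of Lsm4 lay on different transcripts, at nt 273 in coding sequence with a fold of 31.3 and at nt 65 in the 5' untranslated region with 14.7 (10.1 to 20.8), and their intervals do not overlap. Those of Lsm3 lay on 1 transcript, 470 nt apart, so that both are measured on the same annotated molecule: the 3' untranslated summit held 27 fragments and the coding summit 22, a ratio of 1.23 (0.673 to 2.26). Hnrnpul1 offered the other such pair among the members, 555 nt apart, with 45 fragments at its 3' untranslated summit and 31 at its coding one, a ratio of 1.45 (0.899 to 2.37). Both intervals include 1, so no difference in height between the regions was detectable at this depth within these transcripts. Over the list, 53 transcripts had a coding summit as their first and a 3' untranslated summit as their last. The last was higher than the first in 29 of them.

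Of the Sf3 and U2af genes, whose products help to recognise the branch point and the 3' splice site, 3 of 12 were listed. That share was 25%, beside 29.0% of all 131 members. Sf3b5, which encodes a small subunit of the SF3b complex in the U2 snRNP, had a summit of 85.9 (73.9 to 99.3) from 180 fragments, rank 14 in the list. Its position, nt 3771 of ENSMUST00000105139 in the 3' untranslated region, is larger than the whole Sf3b5 gene in the RefSeq gene table of GRCm38.p6, so that summit lies on a longer gene model than RefSeq has. It was the only member summit of which this held, out of 27 in the whole list, and Stx11 and Plagl1 are the neighbouring protein-coding genes in that table. Sf3b3, which encodes a large scaffold subunit of SF3b, had 22.8 (16.9 to 30.1) at nt 3636 of coding sequence. U2af2, the gene of the U2AF subunit that binds the polypyrimidine tract, had 16.6 (11.7 to 23.0) in the 3' untranslated region. Sf3b1, Sf3b2, Sf3b4, Sf3b6, the 3 Sf3a genes, U2af1 and U2af1l4 had no entry.

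PRPF genes had closely spaced folds with no tall summit. Prpf18, a factor of the second catalytic step, had 16.6 in the 3' untranslated region. Prpf38a, a factor of spliceosome activation, and Prpf8, the core protein of the U5 snRNP, both had 15.2 in coding sequence, and Prpf31, which joins the U4/U6 particle to U5, had 14.7 there. Prpf4, another protein of the U4/U6 particle, had 8.54 (5.17 to 13.4). The intervals of all 5 overlap, so that their order is not resolved: the lowest upper end was 13.4 and the highest lower end 11.7.

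Numbered RBM genes are named for an RNA-binding motif and are not a single functional class. Rbm8a, which encodes a core protein of the exon junction complex laid down on spliced mRNA, had a coding summit of 62.7 (52.5 to 74.3) at nt 100, from 131 fragments, and ranked 39. It held 4.68 times the fragments of the next RBM gene, Rbm18 (counting interval 3.09 to 7.31), which had 13.8 in the 3' untranslated region. Rbm42 had 9.97 and Rbm22, a protein gene of the active spliceosome, 8.07. Rbm12 had coding summits of 6.17 and 5.70 on different transcripts, at positions that differ by 24 nt, and may have been 1 site. Rbm12 also overlaps Cpne1 in the gene table, and 10 of the 38 listed members overlap another protein-coding gene there, none of which was itself listed.

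Sfpq, which encodes a paraspeckle protein that pairs with that of Nono, had a 3' untranslated summit of 37.0 (29.3 to 46.2) at nt 2912, whereas Nono had no entry. The letter of the Sfpq summit in the authors' naming places it as at least the sixth in a peak split into several summits, and the others of that peak were not among the data analysed here. In all, 20 of the 47 member summits, or 42.6%, lay in split peaks, against 477 of the 1829 summits of other genes, or 26.1%. The letters imply at least 48 summits in these 20 peaks, of which 20 were listed, so the number of summits per gene is a lower limit.

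**Figure D2:**
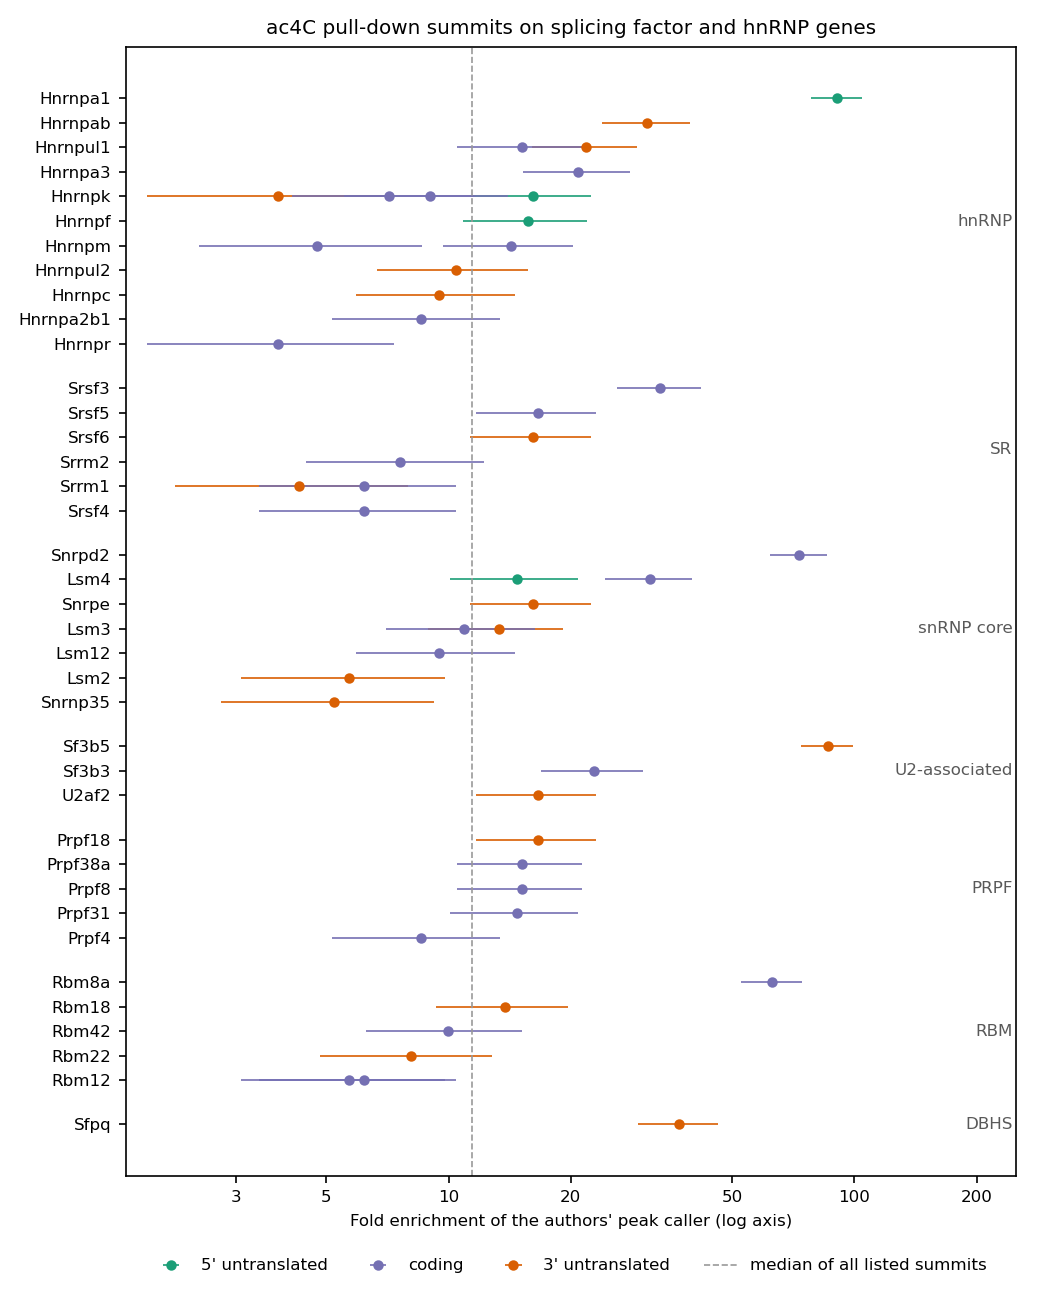
Fold enrichment of all 47 listed summits (log axis) by gene and subfamily, coloured by the authors' region, with bars for the exact Poisson 95% interval of the fragment count and a dashed line at 11.4, the median of all listed summits. Hnrnpa1, Sf3b5, Snrpd2 and Rbm8a lie between 62.7 and 90.7, apart from all the other genes, which lie at or below 37.0.

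Read across subfamilies, the order of the 38 genes had 1 clear step. Of the 37 neighbouring pairs in the order of the tallest fold, the intervals were apart in 1, between Rbm8a at 62.7 (lower end 52.5) and Sfpq at 37.0 (upper end 46.2). The 4 genes above it, Hnrnpa1, Sf3b5, Snrpd2 and Rbm8a, belong to 4 different subfamilies. The intervals of all other neighbours overlapped.

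As a group, the listed members had a slightly higher median fold than other listed genes. The median of the tallest fold per gene was 15.2 (quartiles 8.78 and 21.6) for the 38 members and 12.3 (7.12 and 21.1) for the 1447 other genes, a ratio of 1.23. Of the members, 10, or 26.3%, fell in the range of folds that holds the highest 25.1% of all listed genes, a share near that background. In the range just below, from the median to the upper quartile, lay 14 members, or 36.8%, against 26.4% of all listed genes. The highest 10.1% of all listed genes included 5 members, or 13.2% of them. With only folds at or above the list's median, a selection on the fold itself, the ratio turned to 0.833. Medians by subfamily were 15.7 for hnRNP, 11.9 for SR, 13.3 for snRNP core, 22.8 for Sf3 and U2af, 15.2 for PRPF and 9.97 for RBM genes, and the genes of the 3 subfamilies compared overlapped widely, with ranges of 3.80 to 90.7 for hnRNP, 6.17 to 33.2 for SR and 5.22 to 73.1 for snRNP core. The order of the 3 medians depended on how the classes were drawn. The median was 16.4 for the Srsf genes alone (4 of 11 listed) and 16.1 for snRNP core without Lsm genes (3 of 19 listed). Differences between subfamilies were not tested, since genes are not replicates.

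**Figure D3:**
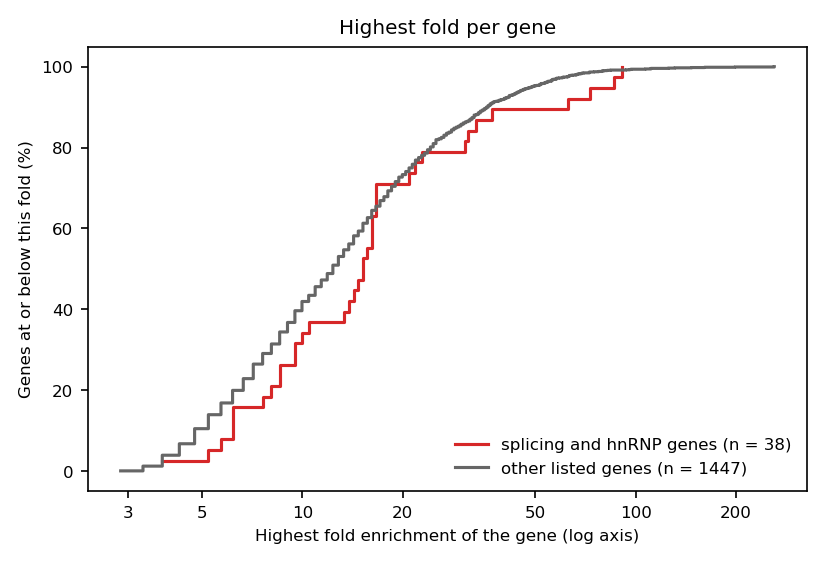
Cumulative share of genes (percent) by their highest fold enrichment (log axis), for the 38 splicing and hnRNP genes and the 1447 other listed genes. The line of the splicing and hnRNP genes lies to the right at low folds, with medians of 15.2 and 12.3, and the lines meet near the upper quartiles of 21.6 and 21.1.

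Most member summits lay in coding sequence. Of the 47, 26, or 55.3%, were coding, 17, or 36.2%, lay in the 3' untranslated region and 4, or 8.51%, in the 5' untranslated region, against 47.8%, 45.2% and 7.05% of the summits of other genes. The PRPF and SR genes had 4 of 5 and 5 of 7 summits in coding sequence, the hnRNP genes 8 of 16, and the Sf3 and U2af genes 1 of 3. Of the 4 summits in 5' untranslated regions, 3 were on hnRNP genes (Hnrnpa1, Hnrnpk and Hnrnpf) and 1 on Lsm4. Counted by summit, the median fold in coding sequence was 10.4 for the 26 summits of members and 10.4 for the 874 of other genes. Counted by gene at its tallest coding summit, it was 14.2 for 23 members and 10.9 for other genes, a ratio of 1.30, so the 2 ways of counting differ. By summit, the medians in the 3' untranslated region were 13.8 for members and 12.3 for other genes, and in the 5' untranslated region 15.9 and 13.3.

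Member summits in coding sequence lay at a median of nt 601 of the transcript, against nt 732.5 for other genes, and those in the 3' untranslated region at nt 2015 against nt 2239. Within 150 nt of the transcript start lay 5 member summits, or 10.6%, against 8.91% for other genes. They were those of Hnrnpa1 at nt 53, Lsm4 at nt 65, Rbm8a at nt 100, Hnrnpf at nt 108 and Hnrnpk at nt 150, and their folds ran from 9.02 to 90.7. Regions were those of the authors' annotation and were not checked against the coding borders of each transcript.

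**Figure D4:**
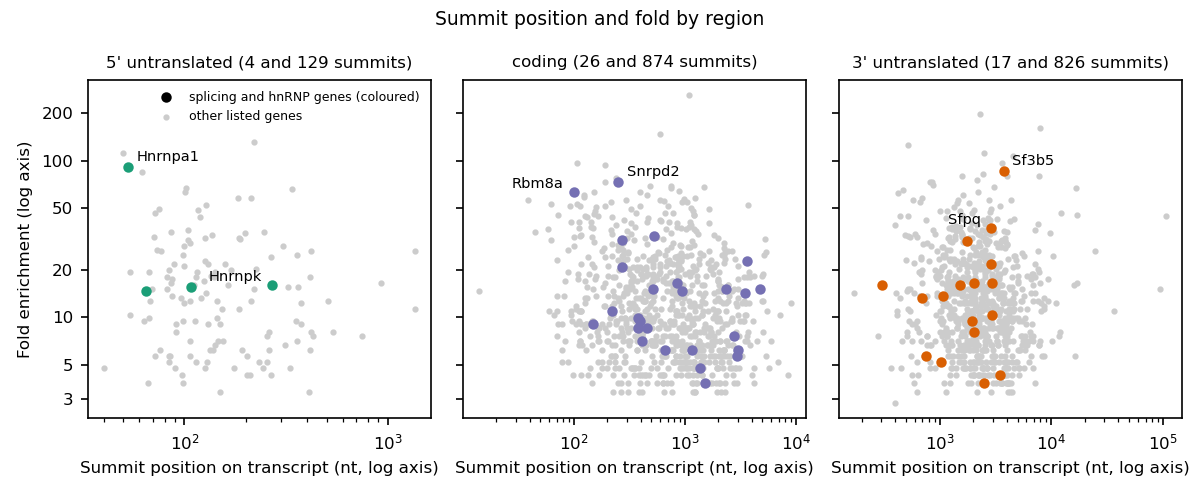
Fold enrichment (log axis) against the position of the summit on its transcript (nt, log axis) in the 3 regions, with summits of splicing and hnRNP genes in colour and those of other listed genes in grey. The coloured points spread through the grey ones, with Hnrnpa1 at nt 53, Snrpd2 at nt 253, Rbm8a at nt 100 and Sf3b5 at nt 3771 near the upper edge.

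Most of the 38 genes had a single listed summit. Of them, 7, or 18.4%, had 2 or more (Hnrnpk, Hnrnpm, Hnrnpul1, Lsm3, Lsm4, Rbm12 and Srrm1), against 20.1% of all listed genes, a share near that background. Among these 7, Hnrnpm and Rbm12 had all their summits in coding sequence, and the other 5 had summits in more than 1 region.

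Other genes of the splicing pathway, 108 helicases, spliceosome subunits, snRNP assembly factors and splicing regulators outside the names above, were counted in the same way. They came from a fixed list of names rather than a naming rule, chosen with earlier results known. Their share and their tallest summits depend on that choice. The share listed was 29.0% for the splicing and hnRNP genes, 24.1% for these other genes, of which 26 had a summit, and 6.71% for all protein-coding genes. The median tallest fold was 15.2 for the splicing and hnRNP genes and 15.0 (quartiles 9.49 and 17.6) for the 26 others, whose highest was 43.2 on Dhx15, which encodes the helicase that takes spent spliceosomes apart. It was followed by Khsrp, a KH-domain regulator of splicing and mRNA decay, at 35.6, by Ddx39b, the helicase of early spliceosome assembly and mRNA export, at 35.1, by Ncbp2, the cap-binding subunit of the nuclear cap-binding complex, at 25.2, and by Ddx17 and Mfap1a, both at 21.4. The first 5 of these 6 tallest summits lay in 3' untranslated regions and that of Mfap1a in coding sequence. None of the 26 other genes reached the folds of the 4 tallest members, but few listed genes of any kind did. The lowest of these 4, Rbm8a, ranked 39 among the 1485 listed genes, or 2.63% from the top.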

How the data were processed

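RNA of 32D cells was pulled down with an ac4C antibody (2 libraries) or IgG (2), beside input (2). Per the submitters' processing notes, cutadapt, Bowtie2, MACS2 and GRCm39 were used; versions, parameters, the control library and the filter are not given in the sources used here. Per the file headers, the authors deposited for each summit a fold enrichment, which is a ratio, and the −log10 of its p-value and q-value; entry names read as 1 call on merged ac4C libraries. The numbers in these names ran to 33651, of which 1824 (5.42%) were listed.

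Fragment counts were recovered from the fold step, and the recovery was tested on simulated data. The −log10 p-values followed from the Poisson tail within 0.00047% for 1861 of the 1876 summits. For the rest the tail was too small to compute. The depth of each library is unknown. Symbols matched a RefSeq gene table (GRCm38.p6) for 1475 of 1485 genes; it was used for names, gene types, gene extent and neighbours. Members, lists and subfamilies were chosen with earlier results of these data known. Every listed member was named, with the 5 highest other splicing genes and ties. No test was run over genes. Intervals are at 95%. Python 3.11.15, pandas 2.3.3, SciPy 1.17.1 and matplotlib 3.10.9 were used.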

Additional observations from a re-analysis of the deposited data

How the results depend on the processing

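No paired analysis was possible because each summit has 1 value for both ac4C libraries together; a replicate could not be left out or used as a block. With only folds at or above the list's median, 24 of 131 members (18.3%) and 17 of 108 other splicing genes were listed, by construction fewer, against 3.65% of all protein-coding genes; the ratio of the members' median fold to that of other genes turned to 0.833 (24 members), and the snRNP core median was 23.7. Under the same selection 7 of 21 hnRNP (33.3%), 3 of 15 SR and 4 of 32 snRNP core genes (12.5%) were listed, shares lower by over 1.5 times but inside their wide intervals, and the 5' untranslated share of member summits was 15.4%. The other alternatives moved no value by more than 1.5 times; the hnRNP median, 10.4 with the mean fold per gene, moved most. The ratio of medians was 1.29 with the mean fold per gene, 1.25 with every summit and, per gene within a region, 1.30 for coding and 1.11 for 3' untranslated summits. Choices made after seeing the data were leaving out summits under 10 fragments (ratio 1.10), leaving out RBM genes (33 of 95 listed, or 34.7%; ratio 1.27) and joining snRNP core, Sf3, U2af and PRPF genes (15 of 57, or 26.3%). The unknown depth and filter limit what a missing entry can show.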
